A study of Mus musculus with 6 samples.

Results

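Lamp5 and neurogliaform-type interneurons of the mouse hippocampus were followed in 6 single-cell RNA libraries. Of 50224 barcodes, 44736 passed the cell filter, with 500 genes and 1000 UMIs or more and no more than 15% of UMIs from mitochondrial genes, and 680 of these (1.52%) met the class rule. The rule asked for at least 2 UMIs of the GABA-synthesis genes Gad1 and Gad2 together. It then asked for a sum of at least 4 UMIs over Vip, Htr3a, Npas1 and Adarb2, strictly above a somatostatin panel (Sst, Elfn1, Crhbp, Pappa) and a parvalbumin panel (Pvalb, Btbd11, Tac1, Tll1). A barcode with any Vip UMI was left out, and Lamp5, Ndnf and Reln had to sum to at least 2 UMIs. All of these 17 genes chose the cells, so their levels are given below as description and without a test.

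The libraries came from hippocampus of mice 6 months of age in 3 groups of 2 samples. The 5×FAD Aβ3FTnAu group was 5×FAD mice given Aβ3FTnAu, which the series title describes as a protein and gold nanostructure directed at amyloid-β plaques. The 5×FAD PBS group was 5×FAD mice given PBS, and the WT PBS group was wild-type littermates given PBS. The 5×FAD line carries mutant human APP driven by the neuronal Thy1 promoter. No label says that the samples of a group were separate animals, so each p-value measures the spread between samples, which may be technical.

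Interneurons of this kind arise mostly from the caudal ganglionic eminence and release GABA diffusely, so that they inhibit neighbouring dendrites slowly through GABA-B and extrasynaptic GABA-A receptors. Neurogliaform cells of the hippocampus lie mainly where the perforant path and thalamic fibres end. The closely related Ivy cells arise from the medial ganglionic eminence, use the transcription factor Lhx6 and make nitric oxide through Nos1. Reln encodes the secreted glycoprotein reelin, Ndnf a secreted neurotrophic factor, Lamp5 a membrane protein of synaptic vesicles and endosomes, and Adarb2 an RNA-binding protein of the RNA-editing family.

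The matrices held 32528417 to 76780861 UMIs and 4823 to 13640 cells past the filter per library. Lamp5-type barcodes numbered 168 and 154 in 5×FAD Aβ3FTnAu, 42 and 67 in 5×FAD PBS, and 180 and 69 in WT PBS. Their median depth lay between 4963 and 7007 UMIs per sample. Between libraries, 293 of 49930 distinct barcode sequences were shared, 10 of them Lamp5-type barcodes and 0 within the class. Barcodes without a mitochondrial UMI made up 45.8% and 50% of the class in 5×FAD Aβ3FTnAu, 4.76% and 19.4% in 5×FAD PBS, and 47.8% and 15.9% in WT PBS. That share separated the treated from the untreated 5×FAD samples and differed widely between the WT PBS samples, and its part in the results below was not tested.

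A small deep fraction carried much of the RNA of the class. Of the 680 barcodes, 55 held more than 20000 UMIs and with them 47.9% of the class's UMIs. These deep barcodes gave 31.3% and 69.5% of the UMIs in 5×FAD Aβ3FTnAu, 54.8% and 10.99% in 5×FAD PBS, and 36.2% and 30.8% in WT PBS. The second 5×FAD Aβ3FTnAu sample and the first 5×FAD PBS sample were the most affected.

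By genes that the rule did not use, the deep barcodes went against the class name. Levels are given as CPM, the UMIs of a gene in a sum scaled to the same total for every sum. Erbb4, the neuregulin receptor of many interneurons, was at 10439 CPM in barcodes of 3000 to 6000 UMIs and at 600.2 CPM in those above 40000 UMIs. Slc17a7, the vesicular glutamate transporter of excitatory neurons, was at 16.1 CPM in barcodes of 3000 to 6000 UMIs and at 199 CPM above 40000 UMIs. Kcnip4, a potassium channel interacting protein gene, was at 1790 and 10077 CPM, and the myelin gene Mbp at 27.5 and 236 CPM. Erbb4 was thus low and the excitatory and myelin genes high in the deepest bin. Of the rule genes, Gad1 was at 445 and 27.4 CPM and Reln at 1682 and 58.4 CPM in the same bins, and since the rule asks for a fixed number of UMIs whatever the depth, these 2 levels are description only. Scrublet scores marked 15 of the 55 deep barcodes as doublets (27.3%) and 56 of the other 625 (8.96%). Levels and divisions of the class below are for the 625 barcodes with at most 20000 UMIs unless stated otherwise, a limit chosen after the data were seen. Tests between groups were run on all 680 and on these 625, and each result names its set.

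**Figure D1:**
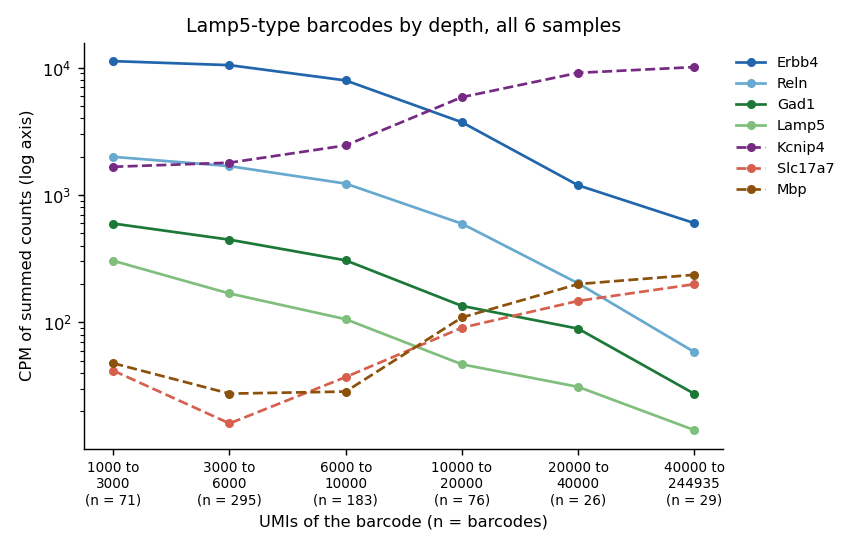
CPM of 7 genes (log axis) in Lamp5-type barcodes of all 6 samples, summed within bins of UMIs per barcode, with the number of barcodes in each bin on the x axis. Erbb4, Reln, Gad1 and Lamp5 (solid lines) are highest in the shallow bins, and Kcnip4, Slc17a7 and Mbp (dashed lines) are highest above 20000 UMIs; Reln, Gad1 and Lamp5 are genes of the class rule.

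Among barcodes of at most 20000 UMIs, the entry genes were detected in every sample. Reln was at 1131 and 1332 CPM in 5×FAD Aβ3FTnAu, 1148 and 1289 CPM in 5×FAD PBS, and 1226 and 1366 CPM in WT PBS. Lamp5 was at 109 and 111 CPM in 5×FAD Aβ3FTnAu, 137 and 204 CPM in 5×FAD PBS, and 111 and 93.8 CPM in WT PBS. Ndnf was at 186 and 184 CPM in 5×FAD Aβ3FTnAu, 307 and 330.5 CPM in 5×FAD PBS, and 422 and 246 CPM in WT PBS. Reln did not separate any groups. Ndnf was lower in both 5×FAD Aβ3FTnAu samples than in the other 4.

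Adarb2 was at 11771 and 11794 CPM in 5×FAD Aβ3FTnAu, 7070.5 and 7124.5 CPM in 5×FAD PBS, and 7789.6 and 10330.0 CPM in WT PBS. Both 5×FAD Aβ3FTnAu samples stood above the other 4.

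Genes that the rule did not use were set beside somatostatin (548 barcodes), parvalbumin (517) and Vip-positive (209) interneurons of the same libraries. Kit, a receptor tyrosine kinase (5: 75574916 to 75656722, mm10), was at 103 and 130.1 CPM in 5×FAD Aβ3FTnAu, 216 and 308 CPM in 5×FAD PBS, and 225 and 163 CPM in WT PBS. Its mean over samples was 191 ± 74.3 CPM in the Lamp5-type class, 6.65 ± 4.06 in the somatostatin, 7.54 ± 4.77 in the parvalbumin and 73.3 ± 56.9 in the Vip class (SD, n = 6 samples each). Kit was thus well above the somatostatin and parvalbumin classes everywhere and above the Vip class in 5 of 6 samples. The nearest class was made up of the 729 barcodes with the same caudal panel, no Vip and fewer than 2 UMIs of Lamp5, Ndnf and Reln. Kit averaged 24.6 ± 10.9 CPM there (SD, n = 6 samples).

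Sv2c, a synaptic vesicle glycoprotein gene (13: 95954594 to 96132577), averaged 107 ± 35.9 CPM in the Lamp5-type class and 6.19 ± 4.22, 3.84 ± 3.68 and 37.8 ± 14.2 CPM in the somatostatin, parvalbumin and Vip classes (SD, n = 6 samples). Hapln1, a link protein of the hyaluronan matrix, averaged 169 ± 42.5 CPM against 30.2 ± 11.6, 25.9 ± 8.32 and 59.8 ± 31.5 CPM. Cacna2d1, an auxiliary subunit of calcium channels, averaged 1365 ± 304 CPM against 113 ± 42.4, 135 ± 50.4 and 558 ± 262 CPM. These 3 genes, the sodium channel partner Fgf13 and the transcriptional inhibitor Id2 were above each of those 3 classes in 6 of 6 samples. The 729 barcodes low in Lamp5, Ndnf and Reln were closer, with Sv2c at 69.5 ± 24.8, Hapln1 at 60.6 ± 24.5, Cacna2d1 at 735 ± 90.5 and Fgf13 at 1142 ± 317 CPM (SD, n = 6 samples), against 1713 ± 305 CPM of Fgf13 in the Lamp5-type class. Npy, the peptide of many neurogliaform and Ivy cells, was at 160.03 ± 79.1 CPM, below the somatostatin class (322 ± 156 CPM) and above the parvalbumin (48.6 ± 22.6 CPM) and Vip classes (43.1 ± 22.4 CPM).

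**Figure D2:**
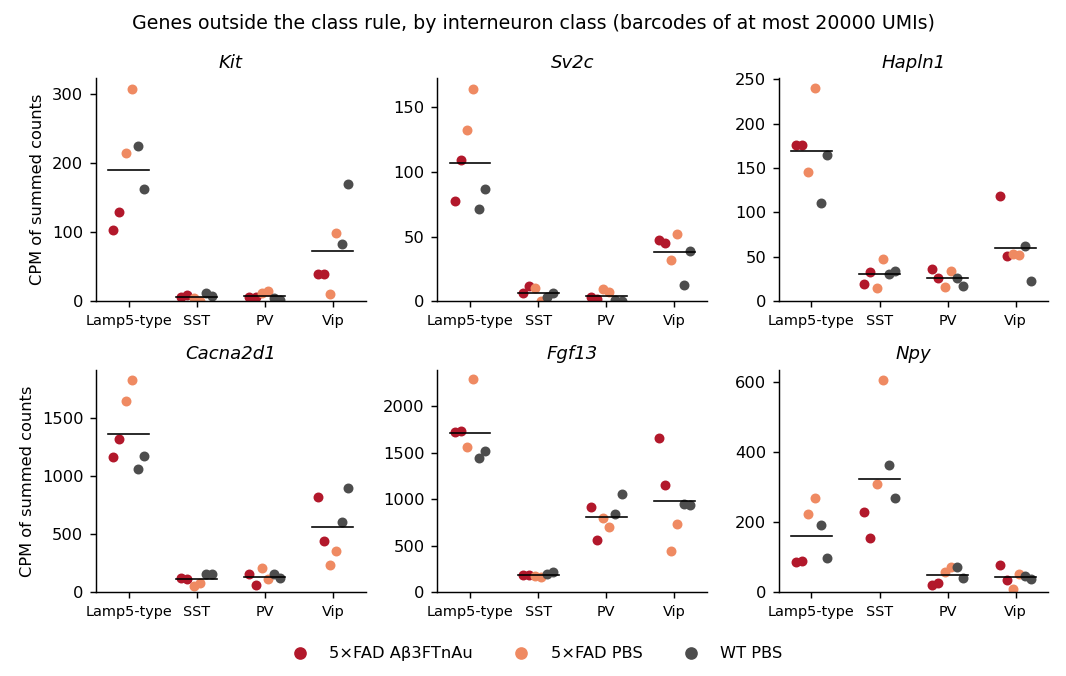
CPM per sample of 6 genes outside the class rule in Lamp5-type, somatostatin (SST), parvalbumin (PV) and Vip-positive interneurons of at most 20000 UMIs; points are samples coloured by group and lines are means over 6 samples. Sv2c, Hapln1, Cacna2d1 and Fgf13 are above each of the other 3 classes drawn in every sample, Kit is above the Vip class in 5 of 6 samples, and Npy is highest in the SST class.

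By the rule for named genes, the highest ratios over the mean of the other 3 classes belonged to the noncoding Gm3510 (13.2-fold), the synaptotagmin Syt6 (12.02-fold) and Sv2c (6.71-fold). Kit (6.54-fold), the proteoglycan Vcan (6.47-fold), Cadps2 of dense-core vesicle release (5.71-fold) and Cacna2d1 (5.07-fold) followed within the same 15. The lowest levels included Sox6, a transcription factor of cells from the medial ganglionic eminence. Sox6 averaged 17.1 CPM in the Lamp5-type class and 373, 438 and 19.1 CPM in the somatostatin, parvalbumin and Vip classes. The neuropeptide gene Tac2 averaged 2.95 CPM against 121 CPM in the Vip class, and the guidance gene Slit2 24.3 CPM against 487 CPM in the parvalbumin class. In all, 572 genes were higher and 571 lower than the mean of the other classes in 6 of 6 samples, of 4153 with at least 50 CPM in a class. The class was defined on this contrast, so these counts describe it and test nothing. Some listed markers were near 0, with Lsp1 at 0.691, Egln3 at 1.82 and Cplx3 at 3.61 CPM.

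Shares of barcodes with a UMI were compared after thinning each barcode, of any depth, to 2000 UMIs, which left out 0 to 8 barcodes per sample. Barcodes gated as oligodendrocytes served as background; they were shallower, with medians of 1493 to 2331 UMIs per sample, and 128 to 592 per sample were left out. Reln was found in 72.7% and 68.0% of Lamp5-type barcodes in 5×FAD Aβ3FTnAu, 63.4% and 64.6% in 5×FAD PBS, and 75.6% and 72.5% in WT PBS. Oligodendrocytes, which should lack it, gave 3.16% ± 1.18 (SD, n = 6 samples). The unthinned means were 85.2% in the Lamp5-type class and 3.65% in the oligodendrocyte gate. Reln is a gene of the class rule, so this gap describes the selection.

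Kit was found in 24.9% ± 6.67 of Lamp5-type barcodes after thinning and in 7.95% ± 1.96 of the oligodendrocyte gate, and in 39.9% and 12.2% unthinned. Npy was found in 18.6% ± 6.02 against 1.88% ± 1.04 (31.8% and 5.402% unthinned), and Sv2c in 17.9% ± 5.63 against 4.27% ± 1.93 (33.6% and 6.97% unthinned; SD, n = 6 samples for each). Nos1 was found in 7.36% ± 3.30 against 2.03% ± 0.993, and Lhx6 in 2.80% ± 1.16 against 0.0303% ± 0.0742. Cck was found in 21.8% ± 4.41 of Lamp5-type barcodes and 19.3% ± 6.43 of the oligodendrocyte gate (48.3% and 35.6% unthinned). The thinned shares lay close together, so they cannot tell Cck of these cells from background.

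The entry genes divided the class into parts that differed in genes the rule did not use. Of the 680 barcodes, 95 (14.0%) held Lamp5 and Ndnf, 188 (27.6%) Lamp5 without Ndnf, 209 (30.7%) Ndnf without Lamp5, and 188 (27.6%) entered on Reln alone. This division was chosen after the data were seen and is given as description. Values below are for barcodes of at most 20000 UMIs.

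Nos1, the neuronal nitric oxide synthase, had its highest mean in the barcodes with Lamp5 and without Ndnf. In them it was at 106 and 87.2 CPM in 5×FAD Aβ3FTnAu, 91.4 and 95.9 CPM in 5×FAD PBS, and 77.1 and 35.7 CPM in WT PBS. In barcodes with Ndnf and without Lamp5 it was at 3.50 and 7.98 CPM in 5×FAD Aβ3FTnAu, 10.4 and 0 CPM in 5×FAD PBS, and 7.25 and 11.5 CPM in WT PBS. Nos1 was thus higher in the first kind in 6 of 6 samples. With Reln alone it averaged 42.7 ± 16.6 CPM, between 82.1 ± 24.6 with Lamp5 only and 6.78 ± 4.34 with Ndnf only (SD, n = 6 samples). The counts were small, between 3 and 24 Nos1 UMIs per sample in the barcodes with Lamp5 only.

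Lhx6, the transcription factor of cells from the medial ganglionic eminence, followed the same division. It averaged 37.0 ± 13.7 CPM with Lamp5 only, 5.12 ± 8.83 with Ndnf only, 1.02 ± 2.496 with both and 9.69 ± 11.1 with Reln alone (SD, n = 6 samples). It was higher with Lamp5 only than with Ndnf only in 5 of 6 samples, and the exception was the second 5×FAD PBS sample with 3 and 2 UMIs. Over all 6 samples, Nkx2-1, another factor of that eminence, was at 13.5 CPM with Lamp5 only and at 0 CPM in each of the other 3 kinds. Npy averaged 290.2 ± 193 CPM with Lamp5 only, 231 ± 154 with both and 65.3 ± 53.5 with Ndnf only (SD, n = 6 samples). It was higher with Lamp5 only than with Ndnf only in 5 of 6 samples, and highest of the 4 kinds with both in 3 of 6. Nos1 and Lhx6 thus had their highest means with Lamp5 and without Ndnf, while Npy was high in both kinds that held Lamp5.

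Kit marked the barcodes that held both Lamp5 and Ndnf. It was at 413 and 559.6 CPM there in 5×FAD Aβ3FTnAu, 689 and 660.3 CPM in 5×FAD PBS, and 672 and 544 CPM in WT PBS. This was the highest of the 4 kinds in 6 of 6 samples, as it was for the kainate receptor gene Grik1. Kit averaged 116 ± 53.6 CPM with Lamp5 only, 165.5 ± 55.0 with Ndnf only and 85.5 ± 53.9 with Reln alone (SD, n = 6 samples). The barcodes with both genes were few, 16 and 14 in 5×FAD Aβ3FTnAu, 5 and 14 in 5×FAD PBS, and 30 and 10 in WT PBS.

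Cnr1, the cannabinoid receptor that is best known from cholecystokinin basket cells, ran the other way. It averaged 801 ± 303 CPM with Ndnf only and 776 ± 269 with Reln alone, against 82.5 ± 40.5 with Lamp5 only and 261 ± 104 with both (SD, n = 6 samples). It was higher with Ndnf only than with Lamp5 only in 6 of 6 samples. Erbb4 averaged 5499 ± 614 CPM with Ndnf only and 10626 ± 1580 with Lamp5 only (SD, n = 6 samples), lower with Ndnf only in 6 of 6 samples.

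**Figure D3:**
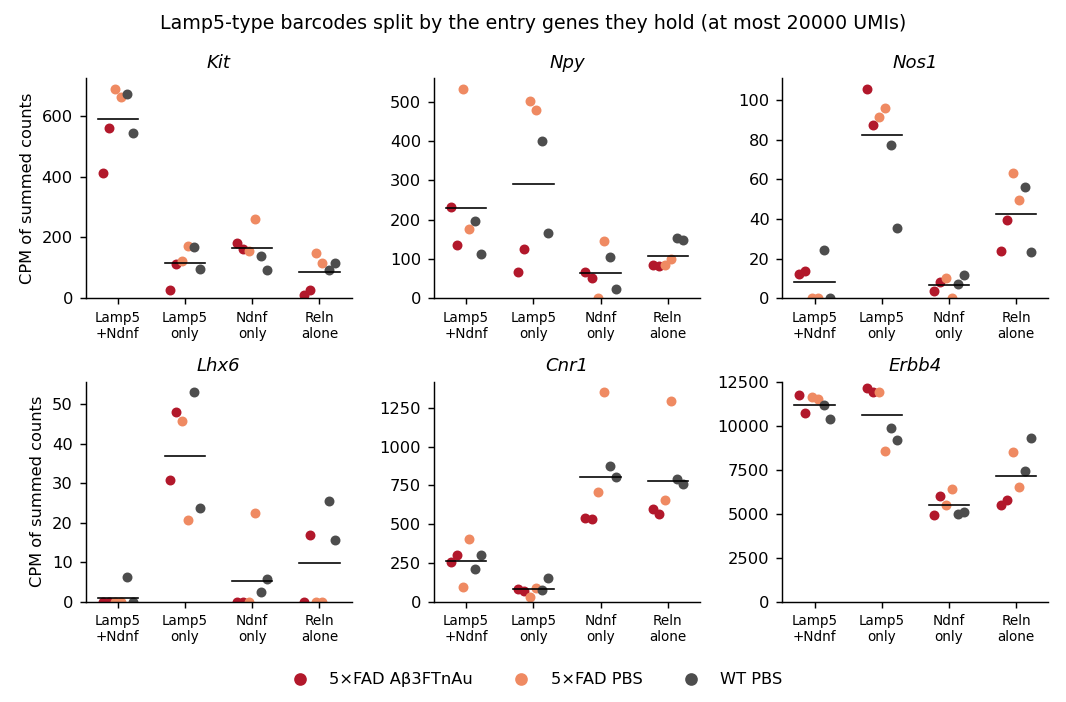
CPM per sample of 6 genes outside the class rule in Lamp5-type barcodes of at most 20000 UMIs, divided by the entry genes they hold; points are samples coloured by group and lines are means over 6 samples. Kit is highest with Lamp5 and Ndnf together, Nos1 and Lhx6 with Lamp5 only, and Cnr1 with Ndnf only or Reln alone.

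The level of Adarb2 within a barcode gave a further division, also chosen after the data were seen. Kit was at 248 CPM in the 286 barcodes of all depths with 20 to 80 Adarb2 UMIs per 10000 UMIs and at 39.9 CPM in the 122 barcodes above 160. In the same bins Lamp5, which like Adarb2 is a rule gene, was at 145 and 7.99 CPM, Sv2c at 143 and 3.42 CPM, and Erbb4 at 9406 and 3430 CPM. Cnr1 was at 285 and 1132 CPM and Cck at 99.2 and 233 CPM. Kit was also low, at 42.7 CPM, in the 147 barcodes with up to 20 Adarb2 UMIs per 10000. Sv2c was at 52.1, Cnr1 at 35.5, Erbb4 at 2091, Slc17a7 at 175 and Mbp at 204 CPM there. Low Kit was therefore not particular to high Adarb2. Of genes outside the rule, Kit and Sv2c were low and Cnr1 high in the barcodes richest in Adarb2, which are left unnamed here. They numbered 41 and 29 in 5×FAD Aβ3FTnAu, 2 and 7 in 5×FAD PBS, and 29 and 14 in WT PBS. They were a larger share of the class in 5×FAD Aβ3FTnAu than in 5×FAD PBS, and their part in the comparisons below was not tested.

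At the edge of the rule, the 113 barcodes of any depth with exactly 2 UMIs of Lamp5, Ndnf and Reln were at 41.6 CPM of Kit, 106 of Npy and 3790 of Erbb4. The 202 barcodes just outside, with 1 UMI, were at 32.9 CPM of Kit, 46.0 of Npy and 3120 of Erbb4. Only 13 barcodes entered with exactly 4 UMIs of the caudal panel, at 105 CPM of Kit and 11477 of Erbb4, and the 15 just below it with 3 UMIs were at 35.8 and 11394 CPM.

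The share of the class among all barcodes with Gad1 and Gad2 asked whether these cells became more or less frequent. It was 21.3% (168 of 789; exact Clopper-Pearson 95% interval 18.5 to 24.3) and 22.6% (154 of 682; 19.5 to 25.9) in 5×FAD Aβ3FTnAu. It was 16.7% (42 of 252; 12.3 to 21.9) and 16.9% (67 of 396; 13.36 to 20.98) in 5×FAD PBS, and 18.2% (180 of 990; 15.8 to 20.7) and 17.4% (69 of 396; 13.8 to 21.5) in WT PBS. The 5×FAD Aβ3FTnAu samples were above the other 4, and the 5×FAD PBS samples were both below the WT PBS samples. With at least 4 UMIs of Lamp5, Ndnf and Reln the share was 13.8% and 18.0% in 5×FAD Aβ3FTnAu, 11.9% and 11.1% in 5×FAD PBS, and 13.9% and 12.4% in WT PBS, so the treated samples no longer stood above both WT PBS samples. Among barcodes without mitochondrial UMIs it was 17.6% and 22.4% in 5×FAD Aβ3FTnAu, 5.71% (2 of 35) and 26% (13 of 50) in 5×FAD PBS, and 18.1% and 12.6% in WT PBS, and the 3 groups overlapped.

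The 5×FAD Aβ3FTnAu mean of 21.9% ± 0.911 was 5.14 percentage points above the 5×FAD PBS mean of 16.8% ± 0.179 and 4.13 above the WT PBS mean of 17.8% ± 0.536 (SD, n = 2 samples each). The exact two-sided permutation test gave p = 0.333 for each pair of groups, the smallest it can give with 2 samples against 2. Among barcodes of at most 20000 UMIs the differences were 5.06 and 3.74 points. The 5×FAD PBS share was 1.01 points below WT PBS, and this direction turned without barcodes holding 3 or more UMIs of excitatory or glial markers (0.762 points) and among barcodes without mitochondrial UMIs (0.502 points). Of all barcodes past the filter, the class was 2.53% ± 0.161 in 5×FAD Aβ3FTnAu, 0.863% ± 0.0117 in 5×FAD PBS and 1.27% ± 0.0720 in WT PBS (SD, n = 2 samples each). Shares of barcodes also depend on dissociation and capture, which were not measured here. Intervals cover counting error only.

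**Figure D4:**
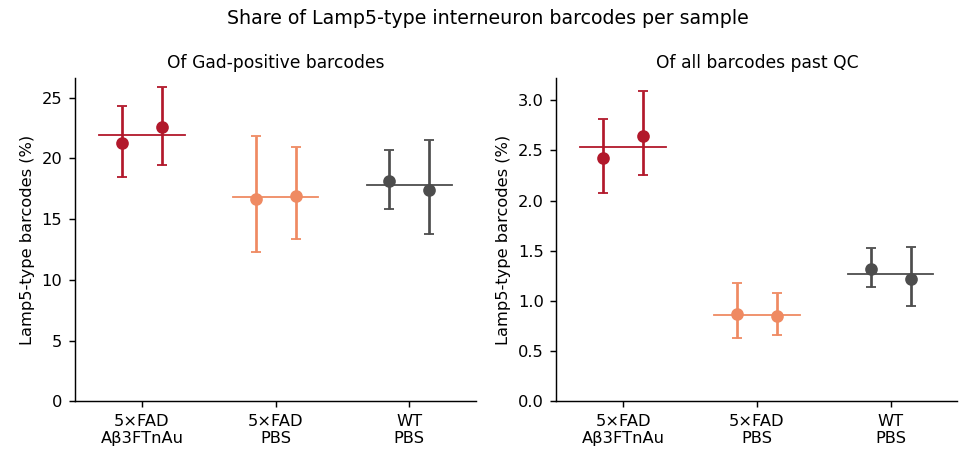
Lamp5-type barcodes as a percentage of barcodes with Gad1 and Gad2 (left) and of all barcodes past the filter (right), per sample, with exact 95% intervals; horizontal lines are group means of 2 samples. The 5×FAD Aβ3FTnAu samples are above the other 4 in both panels, at 21.3% and 22.6% of the Gad barcodes.

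UMIs were summed per sample and tested with edgeR's quasi-likelihood test with Benjamini-Hochberg adjustment over all genes tested. The comparison of 5×FAD PBS with WT PBS asked what the amyloid model changed in these cells. No gene passed, with 0 of 10616 (0%) in all barcodes and 0 of 9176 (0%) in barcodes of at most 20000 UMIs. Before adjustment 555 genes in all barcodes had p under 0.05, and DESeq2 also called 0. Chn2, a signalling protein that acts on Rac, came closest in the smaller set at 166 and 114 CPM in 5×FAD PBS against 41.8 and 46.9 CPM in WT PBS (log2 1.62 ± 0.29, edgeR adjusted p = 0.176; log2 1.24 and adjusted p = 0.867 in all barcodes). The groups did not overlap, and both 5×FAD Aβ3FTnAu samples, at 76.4 and 84.9 CPM, lay between them.

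Of the neurogliaform list, 17 of 20 tested genes had a positive log2 difference between 5×FAD PBS and WT PBS in barcodes of at most 20000 UMIs, with a median of 0.42, against -0.01 over all genes. In all barcodes 19 of 21 were positive with a median of 0.48 against 0.01, and 0 passed in either. Cacna2d1 was at 1645 and 1826.5 CPM in 5×FAD PBS and 1062 and 1170 CPM in WT PBS (log2 0.62 ± 0.15, edgeR adjusted p = 0.478). Sv2c was at 133 and 164 CPM against 71.4 and 87.1 CPM (log2 0.93 ± 0.27, adjusted p = 0.599 in edgeR). Grin2a, an NMDA receptor subunit gene, was at 2470 and 2283 CPM against 1322 and 1616 CPM (log2 0.68 ± 0.16, adjusted p = 0.442 in edgeR). All 3 were higher in both 5×FAD PBS samples than in both WT PBS samples without passing the test, and in all barcodes the log2 differences were 0.43 for Cacna2d1, 0.74 for Sv2c and 0.39 for Grin2a. Leaving out the second WT PBS sample gave 17 called genes in all barcodes and 185 in those of at most 20000 UMIs, where leaving out the first gave 19.

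Microglia genes, which these neurons should lack, summed to 439 and 656 CPM in 5×FAD PBS and 282 and 286 CPM in WT PBS in barcodes of at most 20000 UMIs. Their 8 tested members all had a positive difference, with a median of 1.13, and 0 passed. Genes encoded by mitochondria summed to 916 and 812 CPM against 226 and 911 CPM, with 10 of 10 positive and a median of 0.84. The first WT PBS sample alone was low. The part of microglial and mitochondrial RNA in this comparison was not tested.

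The comparison of 5×FAD Aβ3FTnAu with 5×FAD PBS asked what the treatment changed. In all barcodes edgeR called 0 of 10616 genes (0%) and DESeq2 25, and 1225 had p under 0.05 in edgeR before adjustment. Among barcodes of at most 20000 UMIs, 3 of 9176 genes passed (0.0327%), 1 higher (0.0109%) and 2 lower (0.0218%). The noncoding Gm26936 (1: 137928389 to 137969240) rose, at 334 and 329 CPM in 5×FAD Aβ3FTnAu against 124 and 90.8 CPM in 5×FAD PBS (log2 1.71 ± 0.26, edgeR adjusted p = 0.0323). Nrg1, the neuregulin that binds Erbb4 (8: 31814551 to 32884029), fell, at 460.5 and 439 CPM against 1015 and 954 CPM (log2 -1.08 ± 0.17, edgeR adjusted p = 0.0323). In both genes the replicates of a group lay close together. WT PBS had 53.0 and 91.5 CPM of Gm26936 and 840.2 and 661 CPM of Nrg1.

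Bcas1, a gene of newly formed oligodendrocytes, was the third called gene, with 0 and 1 UMIs in 5×FAD Aβ3FTnAu and 10 and 30 UMIs in 5×FAD PBS (edgeR adjusted p = 0.00513). A single barcode held 10 of the 10 UMIs in the first 5×FAD PBS sample and 23 of the 30 in the second. In all barcodes, neither Gm26936 (log2 1.498 ± 0.30, adjusted p = 0.199) nor Nrg1 (log2 -0.59 ± 0.23, adjusted p = 0.373) passed in edgeR. Without the first WT PBS sample the fit of barcodes of at most 20000 UMIs called 469 genes, without the second 234, and the lowest count with 1 sample left out was 0. In all barcodes these fits gave 50 and 68.

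Npy and Kit were lower in treated samples without passing. Npy (6: 49822710 to 49829507) was at 87.2 and 89.3 CPM in 5×FAD Aβ3FTnAu against 224 and 270 CPM in 5×FAD PBS (log2 -1.44 ± 0.27, edgeR adjusted p = 0.0628), and WT PBS had 192 and 98.2 CPM. Kit was at 103 and 130.1 CPM against 216 and 308 CPM (log2 -1.13 ± 0.23, edgeR adjusted p = 0.0699). In all barcodes the differences were -1.97 ± 0.44 for Npy and -1.53 ± 0.33 for Kit (edgeR adjusted p = 0.230 and 0.213). The groups did not overlap for either gene in barcodes of at most 20000 UMIs. Barcodes with both Lamp5 and Ndnf, where Kit was highest, were 10.1% and 11.7% of the class in 5×FAD Aβ3FTnAu and 14.3% and 20.9% in 5×FAD PBS. Within those of at most 20000 UMIs, Kit was at 413 and 559.6 CPM against 689 and 660.3 CPM. With Ndnf only it was at 182 and 164 CPM against 156 and 259 CPM, and the groups overlapped. The part of these shares in the differences of Kit and Npy was not tested.

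Chrm3, a muscarinic acetylcholine receptor gene (13: 9875486 to 10360847), was at 655 and 642 CPM in 5×FAD Aβ3FTnAu against 228 and 353 CPM in 5×FAD PBS (log2 1.19 ± 0.20, edgeR adjusted p = 0.0555). WT PBS had 606 and 482 CPM, above both 5×FAD PBS samples. Cacna2d3, another calcium channel subunit gene, was at 986 and 939.5 CPM against 535 and 494.5 CPM (log2 0.96 ± 0.17, edgeR adjusted p = 0.0555). In neither gene did the 5×FAD groups overlap. In all barcodes the differences were 0.94 ± 0.24 for Chrm3 and 0.66 ± 0.21 for Cacna2d3 (edgeR adjusted p = 0.230 and 0.315).

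Of the gene lists described next, 0 members passed between the 5×FAD groups, and no list was tested as a set. The list medians below are for barcodes of at most 20000 UMIs, where all genes had a median of -0.01. Mitochondrial transcripts had a median log2 difference of -2.23 with 0 of 10 positive, ribosomal protein genes -0.99 with 3 of 20 positive and oxidative phosphorylation genes -0.64 with 2 of 20 positive. Endoplasmic reticulum stress genes had -1.01 with 0 of 10 positive, and amyloid processing genes -0.40 with 0 of 11 positive. Potassium channel genes had 0.20 with 20 of 24 positive. The neurogliaform list had -0.13 with 7 of 20 positive there and -0.53 with 4 of 21 positive in all barcodes.

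In the same sums, mitochondrial transcripts reached 207 and 168 CPM in 5×FAD Aβ3FTnAu against 916 and 812 CPM in 5×FAD PBS, and microglia genes 323 and 298 CPM against 439 and 656 CPM. Oligodendrocyte genes summed to 171 and 148 CPM against 199 and 376 CPM, excitatory neuron genes to 234 and 297 CPM against 315 and 318 CPM, and astrocyte genes to 122 and 148 CPM against 174 and 189 CPM. In all barcodes the oligodendrocyte sum was 328 and 669 CPM in 5×FAD Aβ3FTnAu against 343 and 341 CPM, highest in the second treated sample. Of 8 endothelial and mural genes, Cldn5, Ly6c1 and Kcnj8 were at 0 in every sample. Of 8 genes of Cajal-Retzius cells, which also make reelin, only Lhx1 was at 0 in every sample. That list includes the rule genes Reln and Ndnf, so its sum does not tell these cells from the class. The part of RNA from other cells in this comparison was not tested.

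The comparison of 5×FAD Aβ3FTnAu with WT PBS gave most of the calls. Of 10616 genes in all barcodes, 233 passed in edgeR (2.19%), 185 of them higher (1.74%) and 48 lower (0.452%). Among barcodes of at most 20000 UMIs, 497 of 9176 passed (5.42%), 276 higher (3.01%) and 221 lower (2.41%). On the same barcodes of at most 20000 UMIs DESeq2 called 86 (61 higher and 25 lower), and edgeR with the replicate number as a block called 294 (189 higher and 105 lower). In edgeR without the block, 152 genes passed with the same direction both in all barcodes and in those of at most 20000 UMIs. They made up 65.2% of the 233 and 30.6% of the 497. The count depended on single samples: in all barcodes it was 0 without either 5×FAD Aβ3FTnAu sample or without the first WT PBS sample, 116 without the first 5×FAD PBS sample and 1267 without the second WT PBS sample. In barcodes of at most 20000 UMIs it was 27 and 106 without the first and second 5×FAD Aβ3FTnAu sample, 246 and 280 without the first and second 5×FAD PBS sample, and 124 and 1621 without the first and second WT PBS sample. A fit on only these 2 groups called 0 genes in all barcodes.

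The genes that rose were mostly noncoding. Of the 185 that rose, 138 (74.6%) were annotated as long noncoding or as to be experimentally verified, a kind that made up 10.9% of the genes tested. Of the 48 that fell, 41 (85.4%) encoded proteins, near the 89.0% of all genes tested. All noncoding genes tested had a median log2 difference of 0.94, and all coding genes -0.04. In barcodes of at most 20000 UMIs, 179 of 276 rising genes were noncoding (64.9%, of 9.66% tested) and 206 of 221 falling genes were coding (93.2%, of 90.3% tested). The medians there were 0.77 for noncoding genes and -0.07 for coding genes. In all barcodes, noncoding genes also had a median of 0.34 between 5×FAD PBS and WT PBS and of 0.51 between 5×FAD Aβ3FTnAu and 5×FAD PBS. The sources used here do not say whether introns or strand were counted, so antisense and host gene reads cannot be told apart.

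Among the rising coding genes with the largest change was Prox2, a homeobox gene (12: 85086385 to 85110759). It was at 73.2 and 72.3 CPM in 5×FAD Aβ3FTnAu, 26.3 and 24.7 CPM in 5×FAD PBS, and 5.86 and 15.4 CPM in WT PBS (5×FAD Aβ3FTnAu against WT PBS log2 3.02 ± 0.37, edgeR adjusted p = 0.0338). The 3 groups did not overlap in all barcodes. It passed in barcodes of at most 20000 UMIs as well (log2 2.38, edgeR adjusted p = 0.0166), with 49.5 and 31.98 CPM of Prox2 in 5×FAD Aβ3FTnAu, 12.4 and 25.2 CPM in 5×FAD PBS, and 5.10 and 13.4 CPM in WT PBS. There the 5×FAD PBS and WT PBS samples overlapped. Gins2, of the DNA replication complex, rose by a log2 difference of 2.94 (adjusted p = 0.0338 in edgeR, and 0.0494 in barcodes of at most 20000 UMIs). The noncoding 1700007F19Rik (3: 58141707 to 58163807) was at 89.5 and 169.5 CPM in 5×FAD Aβ3FTnAu, 9.38 and 0 CPM in 5×FAD PBS, and 5.86 and 20.1 CPM in WT PBS (log2 3.63 ± 0.56, edgeR adjusted p = 0.0338). It was too low to be tested in barcodes of at most 20000 UMIs. The other 7 named rises were Gm43140, Gm15558, Gm47134, Gm35166, Gm9968, Gm10791 and 1700110K17Rik, at log2 2.48 to 2.99, and these 7 passed in the smaller set too.

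The 10 falling genes named by size all passed in both sets, and the values that follow are for all barcodes. Vgf, which encodes a precursor of secreted peptides (5: 137026392 to 137033351), was at 7.39 and 7.40 CPM in 5×FAD Aβ3FTnAu, 22.5 and 33.7 CPM in 5×FAD PBS, and 55.3 and 21.6 CPM in WT PBS (log2 -2.44 ± 0.42, edgeR adjusted p = 0.0338). Clu, the secreted chaperone clusterin (14: 65968483 to 65981547), was at 11.1 and 10.1 CPM in 5×FAD Aβ3FTnAu, 48.8 and 38.2 CPM in 5×FAD PBS, and 56.6 and 23.2 CPM in WT PBS (log2 -1.99 ± 0.39, edgeR adjusted p = 0.0385). For both genes the treated samples lay below the other 4, and the 5×FAD PBS and WT PBS samples overlapped. Clu is most abundant in astrocytes.

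Resp18, of secretory granules, fell by 2.28 on the log2 scale, the haem-binding membrane protein gene Pgrmc1 fell by 2.07 and the Rab acceptor gene Rabac1 fell by 1.998. Morn2 fell by 2.53, C1qtnf4 fell by 1.84, Ly6h, a modulator of nicotinic receptors, fell by 1.84, the complex I subunit gene Ndufb9 fell by 1.84 and Rnasek fell by 1.82. EdgeR adjusted p ranged from 0.0338 to 0.0408 over these 8 genes. In several of these genes the first WT PBS sample was the highest, with Ly6h at 68.8 and 70.3 CPM in 5×FAD Aβ3FTnAu, 118 and 179.7 CPM in 5×FAD PBS, and 365 and 134 CPM in WT PBS.

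Genes of inhibitory transmission passed only in barcodes of at most 20000 UMIs. Slc32a1, the vesicular GABA transporter (2: 158610767 to 158615748), was at 18.3 and 18.7 CPM in 5×FAD Aβ3FTnAu, 41.4 and 88.3 CPM in 5×FAD PBS, and 109 and 40.2 CPM in WT PBS (log2 -2.07 ± 0.42, edgeR adjusted p = 0.0159). In all barcodes it missed the threshold (log2 -2.41 ± 0.55, edgeR adjusted p = 0.0524). Slc12a5, the chloride exporter, fell by 1.06 (adjusted p = 0.0342 in edgeR), against -0.77 in all barcodes (edgeR adjusted p = 0.126). The 8 genes of GABA synthesis and transport had a list median of -0.20, against -0.04 over all genes. Both treated samples were below the other 4 for Slc32a1, and the 5×FAD PBS and WT PBS samples overlapped. No GABA receptor gene of 14 passed, with a median of -0.22.

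Of 22 glutamate receptor genes, 2 rose and 1 fell in barcodes of at most 20000 UMIs, where 3.01% of all genes rose and 2.41% fell. Grin2a rose, at 2033 and 2330 CPM in 5×FAD Aβ3FTnAu and 1322 and 1616 CPM in WT PBS (log2 0.60 ± 0.15, edgeR adjusted p = 0.0352), and the AMPA receptor subunit gene Gria1 rose by 0.58 (adjusted p = 0.0447 in edgeR). Gria3 fell by 0.843, at 303 and 372 CPM in 5×FAD Aβ3FTnAu and 734 and 498 CPM in WT PBS (adjusted p = 0.0316 in edgeR). For Grin2a the 5×FAD PBS samples, at 2470 and 2283 CPM, lay with the treated ones. Of 24 potassium channel genes only Kcnh1 passed, and it rose (log2 0.81, edgeR adjusted p = 0.0333), a share near that of all genes. In all barcodes Grin2a, Gria1, Gria3 and Kcnh1 kept these directions and none passed (edgeR adjusted p = 0.199 to 0.555).

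Of 11 tested genes of caudal eminence origin, 2 rose in barcodes of at most 20000 UMIs, where 3.01% of all genes rose. Of the 11, 4 had a positive and 7 a negative difference, and the list median was -0.07 against -0.04 over all genes. Dlx1, a homeobox factor of interneuron development (2: 71528113 to 71533981), was at 66.7 and 81.6 CPM in 5×FAD Aβ3FTnAu, 58.0 and 45.4 CPM in 5×FAD PBS, and 18.4 and 42.4 CPM in WT PBS (log2 1.48 ± 0.35, edgeR adjusted p = 0.0252). Npas3, another transcription factor gene, rose by 0.54 (adjusted p = 0.0455 in edgeR). Dlx1 was highest in both treated samples. In all barcodes the differences were 0.87 for Dlx1 and 0.10 for Npas3 (edgeR adjusted p = 0.313 and 0.919). Of 7 tested genes of medial eminence origin 0 passed, with a list median of -0.05. Of the 20 tested genes of the neurogliaform list, 13 had a positive difference, with a list median of 0.27.

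**Figure D5:**
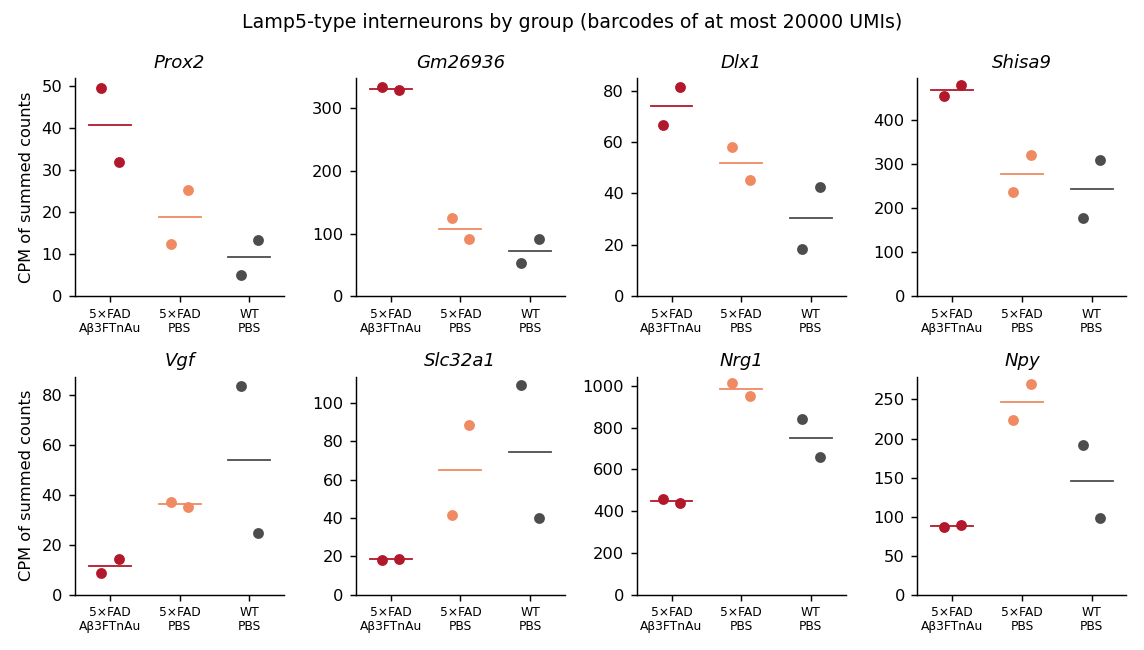
CPM per sample of 8 genes in Lamp5-type barcodes of at most 20000 UMIs, by group; points are samples and lines are group means of 2 samples. Prox2, Gm26936, Dlx1 and Shisa9 are highest, and Vgf, Slc32a1, Nrg1 and Npy lowest, in both 5×FAD Aβ3FTnAu samples; Npy did not pass any test.

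Groups of widely expressed genes had negative list medians between 5×FAD Aβ3FTnAu and WT PBS. In all barcodes, Syp, a synaptic vesicle protein, fell by 1.22 and the disulfide isomerase gene Pdia3 fell by 1.25 on the log2 scale (edgeR adjusted p = 0.0430 each). Of 22 ribosomal protein genes Rpl13 and Rpl37 fell, with a list median of -0.84. Of 21 oxidative phosphorylation genes Ndufb9 fell, with a median of -0.61 and 0 positive. Of all genes tested in all barcodes, 0.452% fell. In barcodes of at most 20000 UMIs, 4 of 20 ribosomal, 3 of 20 oxidative phosphorylation and 2 of 10 endoplasmic reticulum stress genes fell, with medians of -0.92, -0.85 and -0.84, where 2.41% of all genes fell. Of the 10 mitochondrial transcripts mt-Cytb fell, at 5.38 and 14.3 CPM in 5×FAD Aβ3FTnAu, 87.0 and 70.6 CPM in 5×FAD PBS, and 27.5 and 103 CPM in WT PBS (log2 -2.51 ± 0.59, edgeR adjusted p = 0.0252). Both treated samples lay below the other 4, and the WT PBS samples lay far apart. In all barcodes mt-Cytb missed the threshold (log2 -1.75 ± 0.42, edgeR adjusted p = 0.0562).

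Of the amyloid processing list, 0 of 12 tested genes fell in all barcodes. In barcodes of at most 20000 UMIs 1 of 11 fell, where 2.41% of all genes fell. It was the amyloid precursor-like gene Aplp1 (log2 -1.32, edgeR adjusted p = 0.0364). The iron storage gene Fth1 fell by 1.73 (adjusted p = 0.0239 in edgeR) and the nuclear RNA Malat1 fell by 0.57 (adjusted p = 0.0148 in edgeR) in the same set. In all barcodes none of the 3 passed (edgeR adjusted p = 0.288 for Aplp1, 0.377 for Fth1 and 0.425 for Malat1). Apoe and Clu, abundant in glia, passed there too: Apoe fell by 1.16 (adjusted p = 0.0371 in edgeR) and Clu fell by 1.61 (adjusted p = 0.0400 in edgeR). For Apoe the direction turned in all barcodes (log2 0.53, edgeR adjusted p = 0.300). Microglia genes summed to 323 and 298 CPM in 5×FAD Aβ3FTnAu against 282 and 286 CPM in WT PBS, and astrocyte genes to 122 and 148 CPM against 301 and 181 CPM. Their part in these falls was not tested.

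Whether a group effect differed between the Lamp5-type class and the other classed interneurons was tested with edgeR as an interaction, with the library as a block. The other classed interneurons were summed over the somatostatin, parvalbumin and Vip classes, whose proportions differed between samples. The part of that mix in these results was not tested. In all barcodes 0 of 12584 genes differed between 5×FAD PBS and WT PBS (0%), 2 between 5×FAD Aβ3FTnAu and 5×FAD PBS (0.0159%) and 1 between 5×FAD Aβ3FTnAu and WT PBS (0.00795%). None of the 20 largest rises and falls named above for 5×FAD Aβ3FTnAu against WT PBS was among them. The synaptic vesicle gene Syp, for instance, averaged 49.2 CPM in 5×FAD Aβ3FTnAu and 114 CPM in WT PBS in the Lamp5-type class, and 46.2 CPM in 5×FAD Aβ3FTnAu and 109 CPM in WT PBS in the other interneurons (difference of effects -0.03). Prox2 averaged 72.8 CPM in 5×FAD Aβ3FTnAu and 10.7 CPM in WT PBS in the Lamp5-type class, and 45.6 CPM in 5×FAD Aβ3FTnAu and 13.6 CPM in WT PBS in the other interneurons (difference 0.94, edgeR adjusted p = 0.856).

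In barcodes of at most 20000 UMIs, 7 of 11105 genes differed between 5×FAD PBS and WT PBS (0.063%), 3 with a more positive effect in the Lamp5-type class (0.027%) and 4 with a more negative one (0.036%). Between 5×FAD Aβ3FTnAu and 5×FAD PBS 16 differed (0.144%), 12 more positive (0.108%) and 4 more negative (0.036%). Between 5×FAD Aβ3FTnAu and WT PBS 14 differed (0.126%), 8 more positive (0.072%) and 6 more negative (0.054%). Shisa9, an auxiliary protein of AMPA receptors, was at 455 and 480 CPM in Lamp5-type 5×FAD Aβ3FTnAu samples and 236 and 320 CPM in 5×FAD PBS ones, and in other interneurons at 95.2 and 195 CPM against 257 and 212 CPM. The effects differed by 1.48 ± 0.23 on the log2 scale (edgeR adjusted p = 0.00017). Shisa9 was thus higher with treatment in the Lamp5-type class and lower in the others. Against WT PBS, which had 178 and 310 CPM in the Lamp5-type class, the difference was 1.14 (edgeR adjusted p = 0.00824). In all barcodes the 2 differences for Shisa9 were 0.80 and 0.40 (edgeR adjusted p = 0.817 and 0.927).

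Cadps2 was at 931 and 1109 CPM in Lamp5-type 5×FAD Aβ3FTnAu samples, 543 and 626 CPM in 5×FAD PBS and 505 and 737 CPM in WT PBS, while other interneurons stayed between 50.4 and 94.6 CPM. Its effect between 5×FAD Aβ3FTnAu and WT PBS differed by 1.21 ± 0.21 (edgeR adjusted p = 0.00388), and by 0.41 ± 0.27 in all barcodes (edgeR adjusted p = 0.894). Cacna2d1 differed between 5×FAD PBS and WT PBS by 1.15 ± 0.20 (edgeR adjusted p = 0.00301). The Lamp5-type values, given above, were higher in both 5×FAD PBS samples (log2 0.62). Other interneurons were lower, at 162 and 139 CPM of Cacna2d1 in 5×FAD PBS against 206 and 231 CPM in WT PBS. Both movements thus entered the difference. In all barcodes the difference of Cacna2d1 was 1.37 ± 0.25 (edgeR adjusted p = 0.193). Ntng1, which encodes the axonal adhesion protein netrin-G1, differed between 5×FAD PBS and WT PBS by -2.05 ± 0.22 (edgeR adjusted p = 2.95e-08) and between 5×FAD Aβ3FTnAu and 5×FAD PBS by 2.001 ± 0.23 (edgeR adjusted p = 1.19e-07). In all barcodes these differences of Ntng1 were -0.31 ± 0.33 and 0.43 ± 0.33 (edgeR adjusted p = 1 and 0.930), far smaller.

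For Ntng1 the pooled sum of the other interneurons moved more than that of the Lamp5-type class. The Lamp5-type class was at 594 and 448 CPM in 5×FAD Aβ3FTnAu, 352 and 547 CPM in 5×FAD PBS, and 685 and 944 CPM in WT PBS. The others were at 55.9 and 49.9 CPM in 5×FAD Aβ3FTnAu, 133 and 220.3 CPM in 5×FAD PBS, and 89.6 and 60.3 CPM in WT PBS. Within the Lamp5-type class, Ntng1 averaged 909 ± 326 CPM in barcodes with Ndnf only and 441 ± 305 in those with Lamp5 only (SD, n = 6 samples). Among the others, in all barcodes, it averaged 401 CPM in the Vip, 86.5 in the somatostatin and 66.6 in the parvalbumin class. Of the others, Vip barcodes were 33 of 233 and 39 of 253 in 5×FAD Aβ3FTnAu. They were 20 of 80 and 33 of 179 in 5×FAD PBS, and 53 of 367 and 31 of 162 in WT PBS. The part of this mix in the Ntng1 differences was not tested.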

How the data were processed

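The authors deposited raw UMI counts per gene and barcode. The matrices were written by Cell Ranger 7.1.0, per the file headers; the submitters' processing notes name mm10 and Seurat 4.3.0.1. Of 32285 genes, 32235 were matched by gene ID to GENCODE vM21 for coordinates and gene type. No source used here says whether introns or strand were counted. All 6 count files were mapped to a sample. The members and the gene lists were chosen with earlier results of these data known.

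Counts of the class were added up per sample. The main test was edgeR 4.0.16 in R 4.3.3 (glmQLFit and glmQLFTest) with TMM factors and filterByExpr, 1 fit over all 6 samples, and a Benjamini-Hochberg threshold of 0.05. Each standard error is the size of the log2 difference divided by the square root of its F statistic. The 17 rule genes were not tested. Effects were compared between classes by an interaction of class and group on sums of the Lamp5-type and the other classed barcodes, with the library as a block. The code was tested on simulated data. Named genes were up to 10 that rose and 10 that fell, with groups that did not overlap and at least 20 CPM, those of smallest p where few passed, and the 2 members of smallest p in each list. Other genes named because they passed within a list or an interaction, or for the divisions of the class, were chosen after their values were seen.

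Doublets were kept in the main sums. Scrublet (scanpy 1.11.5) scored each sample, and the highest scores, 0.8% per 1000 cells, were left out in an alternative. Other alternatives were DESeq2 1.42.0, its size factors, no filter on low counts, stricter cell filters, equal cells, a replicate block, leaving out each sample and, added after the data were seen, leaving out barcodes over 20000 UMIs. Some results of the lists are not reported here. Shares were compared with exact permutation tests (scipy 1.17.1, Python 3.11.15).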

Additional observations from a re-analysis of the deposited data

Results flagged for a closer look

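In 3 genes a group effect in the Lamp5-type class differed, by the interaction test of edgeR over all barcodes, from that in the other classed interneurons of the same libraries. Gm45323, a noncoding gene, was at 199 and 75.3 CPM in 5×FAD Aβ3FTnAu and 294 and 317 CPM in 5×FAD PBS in the Lamp5-type class, and at 259 and 133 CPM and 183 and 172 CPM in the others. The effects differed by -1.39 ± 0.22 (edgeR adjusted p = 0.0498).

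The noncoding 9630013A20Rik was at 52.5 and 82.1 CPM in 5×FAD Aβ3FTnAu and 35.6 and 159 CPM in 5×FAD PBS in the Lamp5-type class, and at 54.9 and 74.5 CPM and 14.5 and 24.9 CPM in the others. The effects differed by -2.30 ± 0.34 (edgeR adjusted p = 0.0422), and 56 of its 71 UMIs in the second 5×FAD PBS sample came from 1 barcode. Ptgds, a prostaglandin synthase abundant in oligodendrocytes and meninges, was at 87.2 and 131 CPM in 5×FAD Aβ3FTnAu and 113 and 88.0 CPM in WT PBS in the Lamp5-type class, and at 38.2 and 46.8 CPM and 166.5 and 73.5 CPM in the others. The effects differed by 1.62 ± 0.24 (edgeR adjusted p = 0.0459). None of the 3 calls held without the highest Scrublet scores.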

How the results depend on the processing

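Counts of called genes depended on the setting. For 5×FAD Aβ3FTnAu against WT PBS the count of 233 was 155 in DESeq2, 105 with equal cells per sample, 1262 without a filter on low counts, 497 without barcodes over 20000 UMIs, 0 in a fit of only these 2 groups, and 0 to 1267 with 1 sample left out. With the replicate number as a block it was 0. Across genes, the deviations of same-numbered samples correlated at -0.327, -0.139 and -0.043 between pairs of groups. With 2 samples a group these values cannot decide whether the replicate numbers pair samples, and no label says so. For 5×FAD Aβ3FTnAu against 5×FAD PBS the count of 0 was 25 in DESeq2, 22 with equal cells, 398 without the filter, 3 without barcodes over 20000 UMIs and 0 to 68 with 1 sample left out. On barcodes of at most 20000 UMIs, DESeq2 called 86, 26 and 0 genes and the replicate block 294, 1 and 0 (5×FAD Aβ3FTnAu against WT PBS, 5×FAD Aβ3FTnAu against 5×FAD PBS, 5×FAD PBS against WT PBS). For 5×FAD PBS against WT PBS the count of 0 was 26 without the filter and 0 to 17 with 1 sample left out.

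The interaction counts of 0, 2 and 1 (5×FAD PBS against WT PBS, 5×FAD Aβ3FTnAu against 5×FAD PBS, 5×FAD Aβ3FTnAu against WT PBS) were 13, 14 and 19 without the filter, and 7, 16 and 14 without barcodes over 20000 UMIs. They were 4, 5 and 12 without mixed barcodes (3 or more UMIs of excitatory or glial markers), 1, 1 and 2 among barcodes without mitochondrial UMIs, and 0, 0 and 0 without the highest Scrublet scores. With 1 sample left out they ranged over 0 to 3 (3 without the second 5×FAD PBS sample), 0 to 14 (14 without the first 5×FAD PBS sample, 0 without either 5×FAD Aβ3FTnAu sample) and 0 to 9 (9 without the second 5×FAD PBS sample, 0 without the second 5×FAD Aβ3FTnAu sample), and DESeq2 size factors gave 2 for the last. The share of the class in 5×FAD PBS minus WT PBS, -1.01 points, turned to 0.762 without mixed barcodes and 0.502 among barcodes without mitochondrial UMIs. Of 24 named genes called for 5×FAD Aβ3FTnAu against WT PBS, all 24 kept their direction in every setting that tested them, and all 24 lost the call with the block, in the fit of 2 groups and without either 5×FAD Aβ3FTnAu sample or the first WT PBS sample. Except where construction shows it (fewer samples, fewer cells or more genes tested), the cause was not tested. With 2 samples a group and 42 to 180 barcodes a sample, absence of a call does not show absence of a difference.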
